A study of Mus musculus with 68 samples.

Results

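Small RNA-seq of whole lung was used to ask how the microRNAs (miRNAs) of CAST/EiJ mice differed after inhalation of 1,3-butadiene (BD), an industrial gas that the body turns into reactive, DNA-damaging epoxides. The comparison set 3 lungs from BD-exposed mice (numbers 7, 9 and 10) against 7 lungs from mice kept in clean air (numbers 1 and 2, and the 5 that the table calls Lung101 to Lung105). These were 10 of the 20 small RNA libraries and of the 68 samples of the series, which also covers C57BL/6J mice, RNA-seq and chromatin accessibility. All mice were wild-type males, and BD was given 6 h a day on weekdays for 2 weeks. The dose, the ages and whether each library is a separate animal are not given in the sources used here, so p-values measure the spread between these libraries, part of which may be technical. A miRNA entered the comparison when it was listed in all 10 libraries, which left 342 of the 480 entries in the table. A further library labelled CAST/EiJ and BD, number 8, was set aside because its miRNA profile resembled that of C57BL/6J on a strain index described below.

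A miRNA is a short RNA cut from a hairpin precursor, whose left (5p) and right (3p) arms can each give a mature strand. Loaded into an Argonaute protein, the strand pairs through its seed, bases 2 to 8, with sites in messenger RNAs and lowers their translation or stability. Many miRNAs lie in introns of protein-coding genes or in clusters made from 1 long transcript. In lung, some mark a cell type: miR-143 and miR-145 come from smooth muscle, miR-223 from neutrophils and other myeloid cells, miR-34b and miR-449 from ciliated cells, and miR-126 from endothelium.

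The mature strands that carry the findings are shown here so that their seeds can be compared, with the seed in capitals and each read from RefSeq on the GRCm38.p6 build. The 6 miRNAs that passed the test were miR-335-3p, miR-335-5p, miR-381-3p, miR-143-3p, miR-223-3p and miR-362-5p, and miR-300-3p and miR-34b-5p are added because they sit beside or contrast with them.
miR-335-3p: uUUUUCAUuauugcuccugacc
miR-335-5p: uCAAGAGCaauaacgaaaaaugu
miR-381-3p: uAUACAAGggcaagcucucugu
miR-300-3p: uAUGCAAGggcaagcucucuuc
miR-223-3p: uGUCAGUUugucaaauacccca
miR-362-5p: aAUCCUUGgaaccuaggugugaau
miR-34b-5p: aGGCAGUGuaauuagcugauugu

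The hairpin of both miR-335 strands lies at chr6:30741299-30741396 on the plus strand, inside Mest. That of miR-381 lies at chr12:109726822-109726896 (plus), with miR-300 at chr12:109724313-109724391 (plus), both in the imprinted Dlk1-Dio3 region. The miR-223 hairpin is at chrX:96242817-96242926 (plus), within the non-coding gene F630028O10Rik, and that of miR-362 at chrX:7241982-7242046 (minus), within Clcn5. The miR-34b hairpin is at chr9:51103562-51103645 (minus). These positions are on the RefSeq build and not on mm9, the build in the submitters' processing notes. Mature sequences were found for 289 of the 342 miRNAs. None of the 5 passing strands shown shared its seed with another tested miRNA that had a sequence. Between miR-381-3p and miR-300-3p 19 of 22 positions were identical, counted from the 5′ end, and the substitutions from the first to the second were A4G, G21U and U22C, so that the seeds differ at 1 base.

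The 10 libraries held 2519778 to 4184835 counts, of which at least 99.965% lay in the tested miRNAs. In number 8, which had no part in choosing these miRNAs, 99.969% of counts did, against 98.388 to 98.997% in the C57BL/6J libraries. On this share number 8 lay with CAST/EiJ and not with C57BL/6J, and the reason was not tested. On a strain index built from 30 miRNAs chosen for their difference between the clean-air strains, clean-air C57BL/6J libraries sit around 0 and clean-air CAST/EiJ libraries around 1 by construction. Number 8 stood at 0.169, against 0.786 to 0.817 for the other CAST/EiJ BD libraries, 0.946 to 1.09 for clean-air CAST/EiJ and -0.0605 to 0.313 for C57BL/6J after BD. The 3 BD libraries used here thus lay below all 7 clean-air libraries on this index, and the part this has in the results was not tested. Because the index miRNAs were chosen on clean-air libraries, BD libraries can lie lower through that choice alone. The index therefore cannot show a shift with BD. The library numbers form 2 series: clean-air Lung101 to Lung105 (numbers over 100) in one, clean-air numbers 1 and 2 and all BD libraries in the other. What the series stand for is not given in the sources used here, and within clean air they differed, with 53 of 349 miRNAs (15.2%) passing between them, so the BD comparison is given below against each clean-air series too. In fits of CAST/EiJ alone with the series as a covariate, the BD fold rests on clean-air numbers 1 and 2, since no BD number is over 100. RNA-seq libraries with the same numbers, plus BD numbers 11 and 12, were read for host genes and cell type markers (5 BD against 7 clean-air libraries, 12679753 to 50001571 counts).

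Of the 342 miRNAs, 6 (1.75%) differed after BD at an adjusted p under 0.05 in edgeR's quasi-likelihood test with Benjamini-Hochberg adjustment. miR-335-3p, miR-335-5p, miR-223-3p and miR-362-5p were higher (4, or 1.17%) and miR-143-3p and miR-381-3p were lower (2, or 0.585%). The median log2 fold of all 342 was -0.04, and 66 miRNAs had an unadjusted p under 0.05. In each of the 6 the 3 BD libraries lay outside the range of the 7 clean-air libraries, as they did for 41 miRNAs in all (12%), 18 of them higher (5.26%) and 23 lower (6.73%). Levels are given as CPM, counts scaled to a library total of 1000000 after TMM normalization, and folds are BD over clean air. Which library was present mattered: without BD number 7 none passed (52 at an unadjusted p under 0.05), without BD number 9 only miR-335-3p did, without clean-air Lung101 3 did (all among the 6), and without clean-air number 2 24 did, the 6 among them. DESeq2 called 24 of the 275 miRNAs to which it gave an adjusted p (8.73%), the 6 among them, and limma-voom called the same 6.

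**Figure D1:**
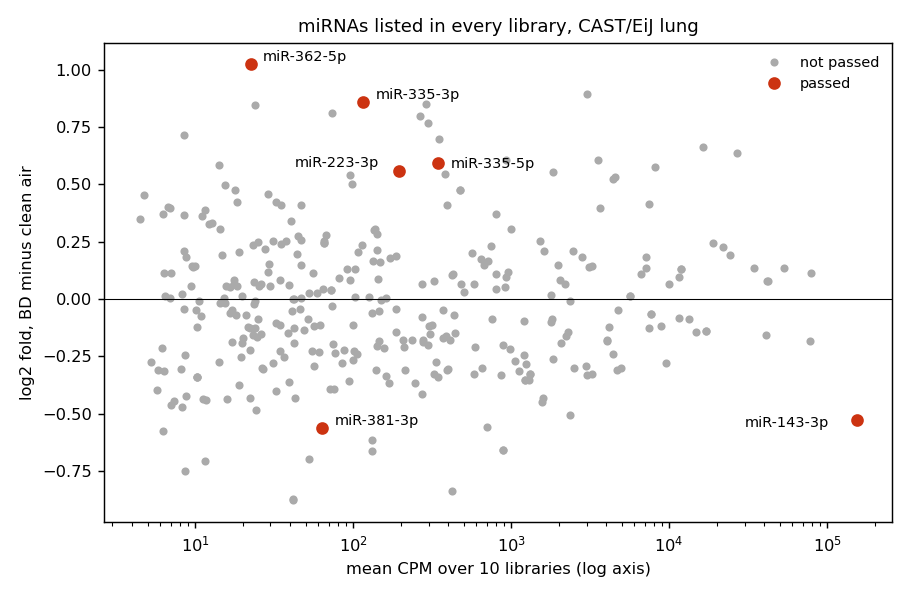
Each point is 1 of the 342 miRNAs, with its mean level over the 10 libraries in CPM (log axis) and its log2 fold after BD in CAST/EiJ lung. The 6 that passed are in red: miR-143-3p lies at the right end, being the most abundant miRNA, and miR-362-5p has the highest fold.

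Both strands of the miR-335 hairpin rose, and miR-335-3p had the lowest p of all 342 miRNAs. miR-335-3p measured 75.3 CPM in the lowest, 92.7 in the median and 117 in the highest clean-air library, and 167, 152 and 185 CPM in BD numbers 7, 9 and 10. Every BD library was above every clean-air library, and the mean moved from 92.8 ± 13.5 CPM (SD, n = 7) to 168 ± 16.5 CPM (SD, n = 3). The rise was 1.81-fold (log2 fold 0.86, SE 0.13, edgeR adjusted p = 0.0102). miR-335-5p, the other strand, ran from 248 through a median of 313 to 342 CPM in clean air, and stood at 448, 465 and 445 CPM after BD. Again the groups did not overlap, and the rise was 1.51-fold (log2 fold 0.59, SE 0.11, edgeR adjusted p = 0.0122). The 2 strands come from 1 precursor, so they are not independent observations of the locus.

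Mest, the imprinted gene of the hydrolase family that holds the miR-335 hairpin, was higher as well in the RNA-seq libraries. Its level ran from 13.9 through a median of 16.1 to 19.95 CPM in the 7 clean-air libraries, and was 21.6, 24.9, 22.4, 20.6 and 20.3 CPM in BD numbers 7, 9, 10, 11 and 12. All 5 BD libraries were above the highest clean-air library, by a small margin for numbers 11 and 12. Among 16614 genes, of which 159 passed (0.957%), 89 higher (0.536%) and 70 lower (0.421%), Mest rose 1.35-fold (log2 fold 0.43, SE 0.09, edgeR adjusted p = 0.0493). The call was lost against clean-air numbers 1 and 2 alone (log2 fold 0.28, edgeR adjusted p = 0.483, with 0.088% of genes called) and with the number series as a covariate (0.26, adjusted p = 0.438, with 2.18% called). With only the numbers that have a small RNA library it was 0.50 (edgeR adjusted p = 0.0836). Copg2, the neighbour of Mest in the same imprinted domain, measured 86.2 ± 9.68 CPM in clean air (SD, n = 7) and 82.8 ± 5.31 CPM after BD (SD, n = 5), with an edgeR adjusted p of 0.702.

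**Figure D2:**
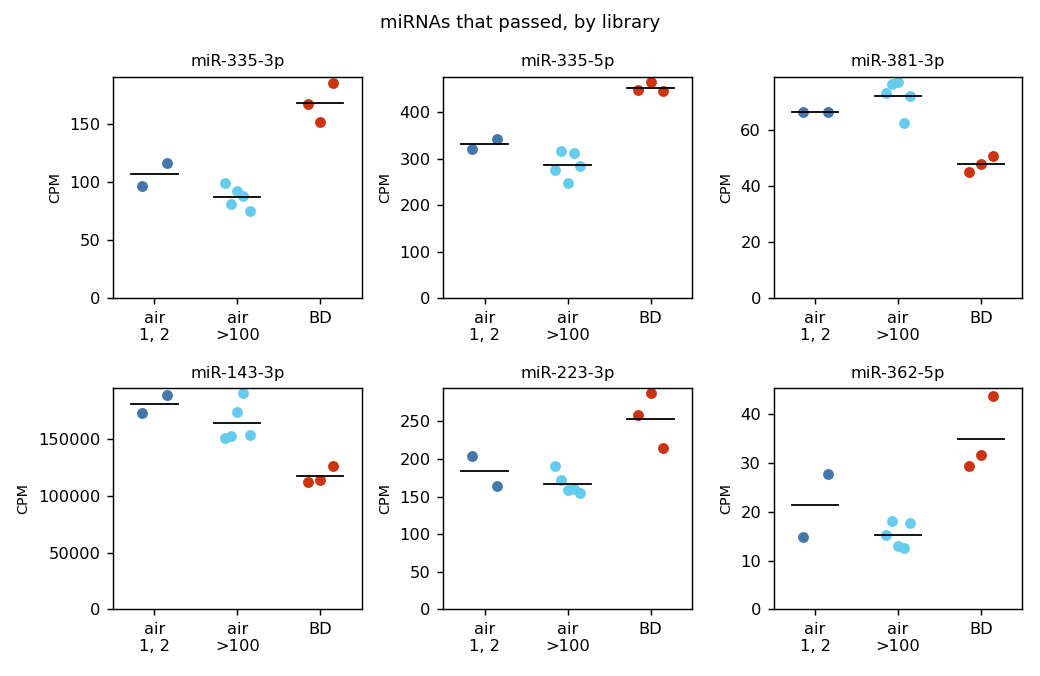
Points are libraries and horizontal bars are means, in CPM on axes from 0, for the 6 miRNAs that passed. Clean-air libraries are parted into numbers 1 and 2 and numbers over 100, and BD is numbers 7, 9 and 10. For miR-362-5p clean-air number 2 (27.8 CPM) comes close to the lowest BD library (29.3 CPM).

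miR-143-3p, the most abundant miRNA of these lungs, fell after BD. In clean air it ran from 150958 through a median of 172779 to 190803 CPM, and it stood at 111951, 114328 and 126115 CPM in BD numbers 7, 9 and 10. The highest BD library was thus below the lowest clean-air library. Mean levels were 169161 ± 17050 CPM (SD, n = 7) and 117465 ± 7585 CPM (SD, n = 3), a 1.44-fold fall (log2 fold -0.53, SE 0.10, edgeR adjusted p = 0.0122). Of the miRNAs that passed against all clean-air libraries, it was the single one that also passed against numbers 1 and 2 alone (log2 fold -0.64, edgeR adjusted p = 0.0198).

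The 4 tested strands of miR-143 and miR-145, which are cut from 1 smooth muscle transcript, did not move as a unit. Only miR-143-3p passed, where 1.75% of all miRNAs did, and 3 of the 4 folds were negative, as were 181 of all 342. The median log2 fold of the 4 was -0.23, and its sign turned with the controls, from -0.69 against numbers 1 and 2 to 0.13 against numbers over 100. miR-143-5p measured 336 and 378 CPM in clean-air numbers 1 and 2, 162 to 195 CPM in numbers over 100, and 159.9 to 209.7 CPM after BD. miR-145-5p followed that order, with 3385 and 3629 CPM, 1672.5 to 2110.2 CPM, and 1945 to 2312 CPM. For both, clean-air numbers 1 and 2 stood apart from the other 5 clean-air libraries, which overlapped with BD. Against numbers 1 and 2 alone miR-143-5p fell (log2 fold -0.99, edgeR adjusted p = 0.0107), as did miR-145-5p (-0.74, adjusted p = 0.0208). Against numbers over 100 neither passed (0.08, edgeR adjusted p = 0.628 and 0.18, adjusted p = 0.209), while miR-145-3p was higher (0.69, adjusted p = 0.00355).

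The host transcript Mir143hg had the same split, at 37.0 and 46.9 CPM in clean-air numbers 1 and 2, 19.7 to 27.6 CPM in numbers over 100 and 20.9 to 27.4 CPM in the 5 BD libraries. It did not pass against all clean-air libraries (log2 fold -0.23, edgeR adjusted p = 0.494) and fell with the number series as a covariate (-0.79, adjusted p = 0.0173). Messenger RNAs of smooth muscle were read beside it: Acta2, Myh11, Tagln, Cnn1, Actg2 and Des, which encode contractile and cytoskeletal proteins. Their summed level was 2081 and 2853 CPM in clean-air numbers 1 and 2, 1286 to 1800.3 CPM in numbers over 100 and 946 to 1823 CPM after BD. All 6 had negative folds, with a median log2 fold of -0.56, and none passed in edgeR (4 at an unadjusted p under 0.05). Over all 16614 genes 8783 had negative folds, 3896 had an unadjusted p under 0.05, and the median log2 fold was -0.02. Markers of other cell types were also lower on balance without a call: 6 of 6 erythroid markers had negative folds (median -0.54, 3 at an unadjusted p under 0.05), as did 5 of 6 fibroblast markers (median -0.34, 2 at an unadjusted p under 0.05). Against clean-air numbers 1 and 2 alone the erythroid median was -0.02 and the fibroblast median -0.44. In such bulk samples fewer cells of a type and less RNA per cell cannot be told apart, and the part of muscle, red cell or fibroblast content in the miR-143 values was not tested.

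**Figure D3:**
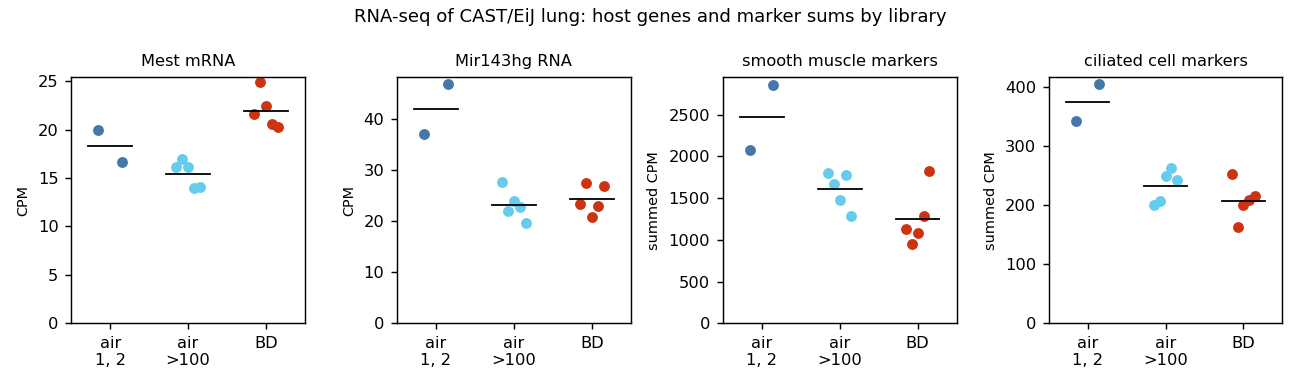
RNA-seq values by library in CPM, on axes from 0, for Mest, Mir143hg and the sums of 6 smooth muscle and 6 ciliated cell markers, with bars at the means. For Mir143hg and both marker sums clean-air numbers 1 and 2 lie above the other clean-air libraries, and for Mest the BD libraries lie above all clean-air libraries.

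miR-381-3p, from the large miRNA cluster of the imprinted Dlk1-Dio3 region, also fell. Clean-air libraries held 62.7 CPM at the lowest, 72.3 at the median and 77.5 at the highest, against 45.0, 47.8 and 50.9 CPM in BD numbers 7, 9 and 10. The groups were parted by a gap, and the fall was 1.48-fold (log2 fold -0.56, SE 0.10, edgeR adjusted p = 0.0122). miR-300-3p, whose hairpin lies 2431 bases away, ran from 74.0 through 80.2 to 90.5 CPM in clean air and was 60.8, 64.3 and 62.1 CPM after BD. It did not overlap either, but missed the threshold (log2 fold -0.39, SE 0.10, edgeR adjusted p = 0.0752). The other 4 tested strands within 10 kb of miR-381 (miR-134-5p, miR-376b-3p, miR-376b-5p and miR-667-3p) had log2 folds from -0.44 to 0.14, overlapping groups and no call.

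Of 23 tested strands of the Dlk1-Dio3 cluster 1 fell and none rose, where 0.585% of all miRNAs fell and 1.17% rose. Negative folds were found for 16 of the 23 and for 181 of all 342, and the medians were -0.28 and -0.04. The lowest fold belonged to miR-379-5p (log2 fold -0.75, edgeR adjusted p = 0.349). For it clean-air numbers 1 and 2 (4.86 and 3.84 CPM) lay near and below the low end of the BD range (4.84 to 7.56 CPM). miR-127-3p, at 1341 to 2719 CPM in clean air, was 1920 to 2256 CPM after BD and had a log2 fold of 0.15. Long non-coding RNAs of the same maternally expressed unit differed from each other. Rian measured 33.8 ± 4.34 CPM in clean air (SD, n = 7) and 25.7 ± 5.66 CPM after BD (SD, n = 5), with a log2 fold of -0.39 and an edgeR adjusted p of 0.108. Meg3 had a log2 fold of 0.26 (adjusted p = 0.628) and Mirg one of -0.05 (adjusted p = 0.926).

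miR-223-3p, which granulocytes and macrophages carry at high level, rose. It ran from 155 through a median of 165 to 203 CPM in clean air and stood at 258, 287 and 215 CPM in BD numbers 7, 9 and 10. BD number 10 was only just above clean-air number 1, the highest of the controls, and the rise was 1.47-fold (log2 fold 0.56, SE 0.12, edgeR adjusted p = 0.0406). The call was lost without any 1 of clean-air Lung101 to Lung105 or of BD numbers 7 and 9. Its other strand, miR-223-5p, measured 16.1 ± 3.25 CPM in clean air (SD, n = 7) and 22.4 ± 4.56 CPM after BD (SD, n = 3), with overlapping groups and an edgeR adjusted p of 0.195. The host transcript F630028O10Rik was at 21.7, 25.9 and 20.7 CPM in BD numbers 7, 9 and 10, above the clean-air range of 12.5 to 19.7 CPM. In BD numbers 11 and 12, which have no small RNA library, it was at 11.5 and 7.39 CPM, and over all 12 libraries its log2 fold was 0.13 (edgeR adjusted p = 0.796). With only the numbers that have a small RNA library its log2 fold was 0.52 and did not pass either (edgeR adjusted p = 0.119).

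Among the 12 tested strands of leukocyte miRNAs, miR-223-3p was the 1 that rose and none fell, where 1.17% of all miRNAs rose and 0.585% fell. Their median log2 fold was 0.16, against -0.04 over all miRNAs. Against numbers over 100 alone 3 of the 12 rose and 2 fell (13.3% and 10.4% of all miRNAs), and against numbers 1 and 2 alone none did. miR-342-3p had a log2 fold of 0.54 (edgeR adjusted p = 0.0926) and BD libraries at 470.0 to 504 CPM, against 421 and 434 CPM in clean-air numbers 1 and 2 and 265 CPM in the lowest control. miR-150-5p, a lymphocyte miRNA, had a log2 fold of 0.21, miR-142-3p, found across blood cell lineages, 0.11, and miR-155-5p, a miRNA of activated immune cells, 0.26. Their edgeR adjusted p values were 0.583, 0.647 and 0.345. For miR-150-5p and miR-142-3p the sign depended on the controls: against clean-air numbers 1 and 2 alone their log2 folds were -0.21 and -0.13. In RNA-seq none of 5 neutrophil markers passed in edgeR (0 at an unadjusted p under 0.05), and their median log2 fold was 0.25. The summed neutrophil level was 63.7 to 140.3 CPM in clean air and 65.5 to 213 CPM after BD, with the highest value in BD number 9, the library with the highest miR-223-3p. The neutrophil median was -0.07 against clean-air numbers 1 and 2 alone. Summed macrophage and monocyte markers stood at 4481, 4769 and 3898 CPM in BD numbers 7, 9 and 10, 3107 and 2231 CPM in numbers 11 and 12, 1858 and 1925 CPM in clean-air numbers 2 and 1, and 2417 to 3940 CPM in numbers over 100. BD numbers 7 and 9 were thus above all clean-air libraries and number 10 just within their range. Most of each sum was the single gene Chil3, at 3923, 4103 and 3357 CPM in BD numbers 7, 9 and 10. Of the 8 markers 3 had negative folds, and their median log2 fold over all 8 was 0.05 against all clean-air libraries and 0.46 against numbers 1 and 2. None of the 8 passed (1 at an unadjusted p under 0.05), and none of 8 B cell or 7 T and NK cell markers did (0 and 2). The part of leukocyte content in the miR-223 values was not tested.

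miR-362-5p had the highest fold of all 342 miRNAs, at a low level. Clean-air libraries held 12.7 CPM at the lowest, 15.3 at the median and 27.8 at the highest, and BD numbers 7, 9 and 10 held 29.3, 31.8 and 43.8 CPM. Clean-air number 2 stood alone near the BD libraries, while the other 6 controls reached 18.1 CPM at most. The rise was 2.03-fold (log2 fold 1.02, SE 0.22, edgeR adjusted p = 0.0406), and leaving out any library other than clean-air number 2 ended the call. Of 5 other tested strands made within 10 kb on the same X-linked cluster none passed, and miR-362-3p, from the same hairpin, measured 41.8 ± 8.05 CPM in clean air (SD, n = 7) and 41.8 ± 3.90 CPM after BD (SD, n = 3). miR-501-3p had a log2 fold of 0.85 (SE 0.41, edgeR adjusted p = 0.302), and its clean-air libraries were parted by series, at 346 and 412 CPM in numbers 1 and 2 and 69.7 to 239.9 CPM in the rest. Clcn5, the chloride transporter gene that holds the cluster, had a log2 fold of 0.19 (edgeR adjusted p = 0.186).

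The choice of controls changed which miRNAs passed. Against clean-air numbers 1 and 2 alone 7 of 352 miRNAs passed (1.99%): 7 were lower (1.99%) and none were higher (0%), where 49 had an unadjusted p under 0.05 in edgeR, 14 higher and 35 lower. Against numbers over 100 alone 82 of 345 passed (23.8%), 46 higher (13.3%) and 36 lower (10.4%), and there exposure and number series cannot be told apart, since all BD libraries belong to the other series. With the series as a covariate 12 of 342 passed (3.51%), 2 higher (0.585%) and 10 lower (2.92%). That fit takes its BD folds from numbers 1 and 2 too, and the numbers over 100 add only to the estimate of spread. It is therefore not a separate comparison. The 6 miRNAs above were all among the 82, miR-143-3p and miR-335-3p were among the 12, and miR-143-3p alone was among the 7. The log2 fold of miR-335-3p was 0.64 against numbers 1 and 2 (SE 0.14, edgeR adjusted p = 0.0723) and 0.95 against numbers over 100 (SE 0.11, adjusted p = 3.59e-04). That of miR-381-3p was -0.49 (adjusted p = 0.118) and -0.60 (adjusted p = 0.00286). For these and the other 4 the sign was the same against either set of controls. In all 6 the BD libraries lay outside the range of every control, so the shared sign was fixed in advance.

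**Figure D4:**
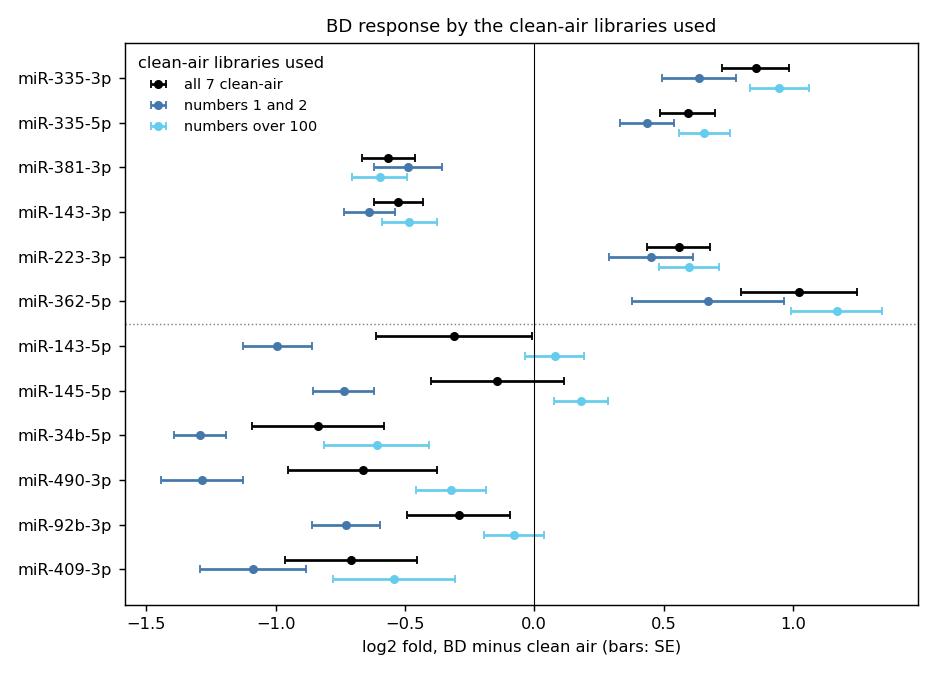
Log2 folds after BD with their SE, against all 7 clean-air libraries (black), numbers 1 and 2 (dark blue) and numbers over 100 (light blue). The 6 miRNAs above the dotted line keep their sign in all 3, which was fixed in advance because their BD libraries lie outside the range of every control. Below the line miR-143-5p and miR-145-5p range from -0.99 and -0.74 to 0.08 and 0.18.

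The strongest call within the lower series was miR-34b-5p, of the p53-responsive miR-34 family that is abundant in ciliated cells. It stood at 643 and 675 CPM in clean-air numbers 1 and 2, 313 to 614 CPM in numbers over 100 and 275, 262 and 277 CPM in BD numbers 7, 9 and 10. All BD libraries were below all 7 clean-air libraries, but with controls that differed by this much the log2 fold of -0.84 (SE 0.26) did not pass against all of them (edgeR adjusted p = 0.101). Against numbers 1 and 2 it was -1.29 (SE 0.10, edgeR adjusted p = 5.77e-04). The tested miRNAs with the same seed, miR-34a-5p, miR-449a-5p and miR-449c-5p, had log2 folds of -0.24, -0.18 and 0.41 against all clean-air libraries and 0.25, 0.57 and 0.26 against numbers 1 and 2, none of which passed. The other strand, miR-34b-3p, fell with the series as a covariate (-0.95, adjusted p = 0.0116). Ciliated cell messenger RNAs (Foxj1, Ccdc39, Dnah5, Dynlrb2, Tekt1 and Rsph1) summed to 343 and 404 CPM in clean-air numbers 1 and 2, 199.6 to 262 CPM in numbers over 100 and 162 to 252 CPM after BD. Their 6 folds were all negative and none passed in edgeR (3 at an unadjusted p under 0.05), where 8783 of all 16614 genes were negative and 3896 had such a p. The part of ciliated cell content in the miR-34b values was not tested.

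The other calls against numbers 1 and 2 were miR-490-3p, miR-92b-3p and miR-409-3p. miR-490-3p, encoded in the muscarinic receptor gene Chrm2, was at 226 and 228 CPM in clean-air numbers 1 and 2, 104.6 to 139 CPM in numbers over 100 and 79.6 to 111 CPM after BD (log2 fold -1.28, edgeR adjusted p = 0.00889). miR-92b-3p was at 3867 and 4629 CPM, 2326 to 3285 CPM and 2363 to 2839 CPM (-0.73, adjusted p = 0.0362). miR-409-3p, of the Dlk1-Dio3 cluster, was at 16.8 and 16.6 CPM, 8.62 to 14.7 CPM and 7.10 to 9.55 CPM (-1.09, adjusted p = 0.0395). In all 3 the BD range lay below numbers 1 and 2 and overlapped with that of the numbers over 100. Tissue markers also parted these controls: liver transcripts (Alb, Apoa1, Ttr, Fgb and Serpina1a) summed to 114 and 1273 CPM in clean-air numbers 1 and 2, 22.9 to 80.3 CPM after BD and 3.48 to 8.73 CPM in numbers over 100. Their part in the miRNA values was not tested.

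Of the 4 miRNAs next in order of p that did not pass, 2 were the loci of miR-103-3p, which with miR-107-3p shares the seed GCAGCAU. For locus 1 clean air ran from 1345 through 1682 to 2032 CPM and BD was 1239, 1249.7 and 1233 CPM, a tight set below every control (log2 fold -0.45, SE 0.12, edgeR adjusted p = 0.0856). Locus 2 had a log2 fold of -0.43 and miR-107-3p one of -0.41 (adjusted p = 0.0856 and 0.101), and the loci give 1 mature strand that mapping cannot part. The host genes Pank3 and Pank2, which make pantothenate kinases, had log2 folds of -0.14 and 0.12 and did not pass. miR-375-3p, a miRNA of endocrine and secretory cells, ran from 681 through 749.8 to 965 CPM in clean air and was 624, 429.6 and 541 CPM after BD (log2 fold -0.56, SE 0.15, edgeR adjusted p = 0.0856). Among club and alveolar epithelial transcripts read beside it, Scgb3a2, a club cell secretoglobin, fell 2.85-fold (edgeR adjusted p = 0.0486) and the other 5 did not pass. The Scgb3a2 call was lost against clean-air numbers 1 and 2 alone (log2 fold -2.03, edgeR adjusted p = 0.0911). It was also lost with only the numbers that have a small RNA library (-1.52, adjusted p = 0.109). With the number series as a covariate it passed (-2.04, adjusted p = 0.0181). In none of these settings was the fold smaller than the -1.51 against all clean-air libraries.

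Several miRNAs often followed after toxic exposure gave no call. The p53 target miR-34a-5p was at 75.5 to 172 CPM in clean air and 84.7 to 102.6 CPM after BD. miR-146a-5p, an inhibitor of NF-kappaB signalling, was at 1010 to 1109.6 CPM after BD, within a clean-air range of 694 to 2905 CPM whose top was Lung104 alone. Hypoxia-responsive miR-210-3p had a log2 fold of -0.36 (SE 0.12, edgeR adjusted p = 0.122), and miR-21-5p, raised in many injured tissues, 0.24 (SE 0.08, adjusted p = 0.122). miR-21-5p ran from 16211 to 20027 CPM in clean air and from 20565 to 22136 CPM after BD, without overlap. Its minor strand miR-21-3p was at 94.3 to 119.9 CPM after BD, next to 88.6 and 88.2 CPM in clean-air numbers 1 and 2 and above 44.8 CPM in the lowest control (log2 fold 0.81, edgeR adjusted p = 0.0883). Vmp1, whose gene overlaps the miR-21 hairpin, had a log2 fold of -0.03. Endothelial miR-126-3p (log2 fold 0.23, host gene Egfl7 -0.09) and red cell miR-451 (-0.05) did not pass.

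The abundant miRNAs other than miR-143-3p differed little. By mean level they were miR-22-3p, miR-30a-5p, miR-10a-5p and miR-26a-5p (locus 2), with log2 folds of 0.11, -0.18, 0.13 and 0.08 and no call. miR-22-3p was at 70168 to 81669 CPM in clean air and 78833 to 87334 CPM after BD, and its host transcript Mir22hg had a log2 fold of 0.44 (edgeR adjusted p = 0.0765). For miR-30a-5p the ranges were 66553 to 101605 CPM and 63881 to 77263 CPM.

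No other list of miRNAs held a call, the hypoxia and liver list being tested through miR-210-3p alone. The epithelial list, with the miR-200 family, had 15 tested strands and a median log2 fold of -0.07. In the striated muscle list 5 of 6 folds were negative and the median was -0.66, with wide spread: miR-133a-3p (locus 1) was at 1367, 313 and 213 CPM in BD numbers 7, 9 and 10 and at 479.7 to 1599 CPM in clean air. Heart and skeletal muscle transcripts spread likewise, from 635 to 2847 CPM in clean air and 402 to 3225 CPM after BD. Medians from -0.11 to 0.07 were found for let-7 and miR-98 (21 strands, -0.11), the erythroid list (4, -0.11), the miR-17 to 92 cluster and its paralogs (16, -0.05), the miR-30 family (12, 0.01), miR-15 and 16 with relatives (12, 0.01), miR-23, miR-24 and miR-27 (10, 0.07), and miR-99, miR-100, miR-125 and miR-10 (14, 0.04). Lower medians stood in the p53-linked list (9 strands, -0.23), the ciliated cell list (5, -0.24), the miR-29 family (6, -0.20) and the miR-181 family (8, -0.14). Of these, the ciliated cell median turned to 0.25 and the miR-29 median to 0.0088 against numbers 1 and 2 alone (0.26 and 0.023 with the series as a covariate), so their sign depended on the controls. The sign also turned in the epithelial list (0.041) and in that of miR-99, miR-100, miR-125 and miR-10 (-0.10) against numbers 1 and 2, and in the miR-30 (-0.013) and miR-15 and 16 (-0.076) lists against numbers over 100. Positive medians stood in the inflammation list (8, 0.11), the endothelial list (5, 0.19) and the X-linked miR-322 cluster (8, 0.28). In that cluster 7 of 8 folds were positive, and miR-351-5p was at 2225 to 2614 CPM after BD against 1210 to 2089.6 CPM in clean air (log2 fold 0.56, edgeR adjusted p = 0.0883).

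**Figure D5:**
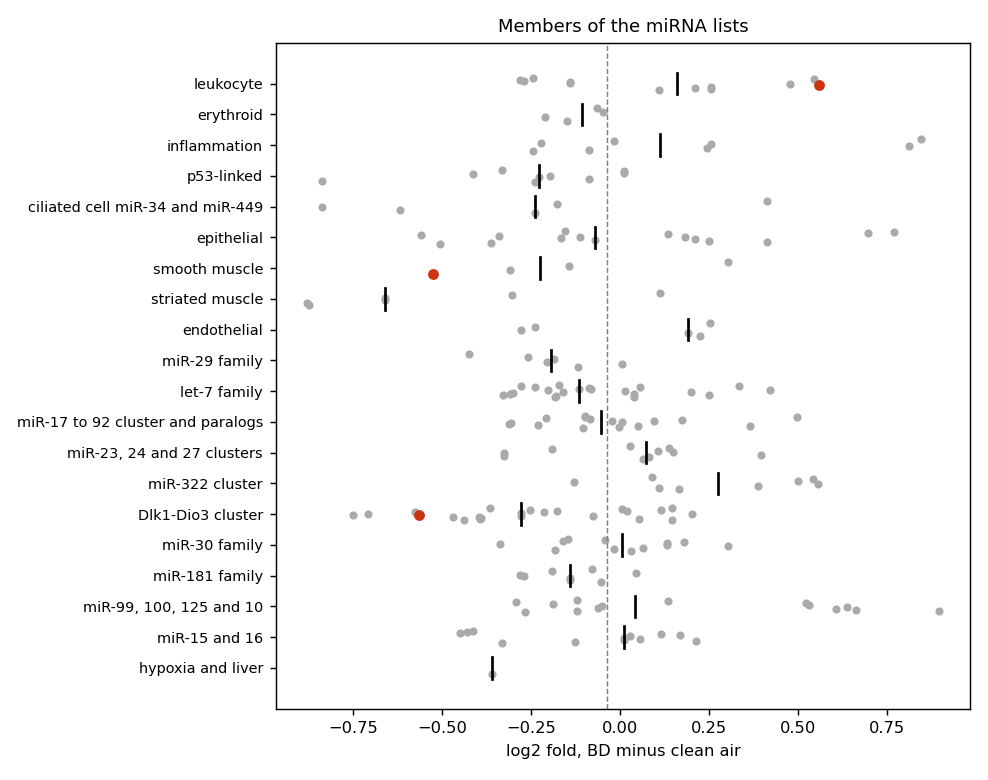
Log2 folds after BD of the tested members of each miRNA list. Red points passed the test, short black bars are list medians, the dashed line is the median of all 342 miRNAs (-0.04), and the vertical offset within a row only parts the points. The 3 red points are miR-143-3p, miR-223-3p and miR-381-3p, and a strand can stand in more than 1 list.

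To see whether the response differed from that of the other strain, the BD effect in CAST/EiJ was set against that in C57BL/6J (4 BD and 5 clean-air libraries) over 320 miRNAs listed in all 19 libraries. The effects differed for 89 miRNAs (27.8%), 4 of the 6 passing miRNAs among them. The 6 were chosen by their BD effect in the same CAST/EiJ libraries that enter this contrast. The 4 of 6 is therefore not independent of that choice, and the differences of the 6 may be overstated. In C57BL/6J itself 31.6% of the 320 passed. miR-143-3p rose there, from 114525 ± 14072 CPM (SD, n = 5) to 140367 ± 15723 CPM (SD, n = 4, edgeR adjusted p = 0.0304), and the log2 difference between the strains' responses was -0.82 (SE 0.14, edgeR adjusted p = 0.00305). For miR-223-3p C57BL/6J moved from 203 ± 28.2 CPM (SD, n = 5) to 179 ± 29.1 CPM (SD, n = 4), and the difference was 0.75 (SE 0.19, adjusted p = 0.00845). For miR-143-3p, miR-223-3p and miR-381-3p the fitted effects had opposite signs in the strains. miR-335-3p went from 97.7 ± 21.6 to 112 ± 18.2 CPM, with a difference of 0.66 (SE 0.23, adjusted p = 0.0386). miR-381-3p, at 34.7 ± 11.9 and 46.3 ± 14.6 CPM, had a difference of -0.98 (SE 0.30, adjusted p = 0.0203). In this fit of all 4 groups its fall in CAST/EiJ did not itself pass (log2 fold -0.56, edgeR adjusted p = 0.169). Neither did the rise of miR-362-5p (1.02, adjusted p = 0.0687). The fit called 9 of 320 miRNAs in CAST/EiJ, 4 of the 6 among them. For miR-335-5p (0.30, adjusted p = 0.246) and miR-362-5p (0.64, adjusted p = 0.297) a difference was not shown. In the same fit clean-air CAST/EiJ libraries held 170095 ± 16410 CPM of miR-143-3p, 71.2 ± 5.50 of miR-381-3p and 93.4 ± 14.3 of miR-335-3p (SD, n = 7). The first and second of these are above the clean-air C57BL/6J means, so their fall after BD was towards the level of the other strain. For miR-335-3p the clean-air means of the strains lay within 1 SD of each other. Of the C57BL/6J BD libraries 3 had 7676679 to 8474182 counts and the other had 3146118 counts, and the part of depth in this contrast was not tested. Number 8 itself held 98468 CPM of miR-143-3p, 40.2 of miR-381-3p, 161 of miR-223-3p, 161 of miR-335-3p, 489 of miR-335-5p and 17.2 of miR-362-5p. Kept under its label, 4 of 335 miRNAs passed (1.19%), and these were 4 of the 6, without miR-223-3p and miR-362-5p.

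The 138 entries left out of the test were near the lowest value the table lists, 10.5 counts, and 53 of them were listed in none of the 10 libraries. Listed in at least 6 clean-air libraries and no BD library were miR-127-5p, miR-16-3p (locus 1), miR-186-3p and miR-1947-5p, at 11 to 26 counts where listed. No miRNA was listed in all 3 BD libraries and in at most 1 clean-air library. Values this close to the listing limit give no usable fold.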

How the data were processed

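Lung small RNA and RNA-seq libraries were grouped by the strain and exposure in their labels. The authors deposited both tables. The miRNA values are fractional estimated counts of reads per miRNA (64.1% whole within 1e-06), and the deposited RNA-seq values are raw counts per gene. Bowtie, GSNAP and the build mm9 are named, without roles or versions, per the submitters' processing notes. Per the labels' protocols, TruSeq libraries were made from RNeasy total RNA. Entries under about 10.5 counts are not listed. The table uses older names (miR-21 for miR-21a), and 61 entries are loci of 30 mature names that share reads.

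Estimated counts were rounded and fitted with edgeR 4.0.16 (TMM, robust quasi-likelihood, 3 BD against 7 clean-air libraries, adjusted p threshold 0.05), with limma 3.58.1 and DESeq2 1.42.0 as alternatives in R 4.3.3. Genes passed edgeR's default filter on low counts. The strain contrast used 4 group means. Scripts were tested on simulated data. Named were miRNAs that passed, the next by p up to 10, 11 set miRNAs, the 5 most abundant, and neighbours within 10 kb and host genes of those. Other miRNAs, such as miR-34b-5p, miR-342-3p, miR-351-5p, miR-21-3p, miR-379-5p, miR-127-3p and miR-133a-3p, and the gene Copg2 fall outside that rule and were chosen after their values were seen. The members and lists were chosen with earlier results of these data known. Between any 2 of the 10 libraries counts differed by at least 19.48 chi-square per degree of freedom, so none was a copy. Alternatives were other scaling, filters, tools, controls, summed loci, number 8 kept and each library left out. Chromatin samples were not analysed here.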

Additional observations from a re-analysis of the deposited data

Results flagged for a closer look

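In 3 of the named miRNAs 1 clean-air CAST/EiJ library stood far from the other 6: number 2 for miR-362-5p (27.8 CPM against 12.7 to 18.1), Lung104 for miR-146a-5p (2905 CPM against 694 to 1149) and number 1 for miR-26a-5p locus 2 (36780 CPM against 40720 to 43260). Among the 4 libraries labelled CAST/EiJ and BD, number 8 stood apart on the strain index (0.169 against 0.786 to 0.817). Of 25 groups looked at in this way 4 showed such a gap, where chance gives about 1 in 20, or 1.25. Number 8 had been set aside beforehand for its profile, so its gap was known in advance. The count of 4 is therefore not a test against chance.

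The BD response differed between the strains, by edgeR's interaction test with Benjamini-Hochberg adjustment over 320 miRNAs, for 4 of the 6 miRNAs that passed. The log2 response in CAST/EiJ minus that in C57BL/6J was -0.82 for miR-143-3p (adjusted p = 0.00305), 0.75 for miR-223-3p (adjusted p = 0.00845), 0.66 for miR-335-3p (adjusted p = 0.0386) and -0.98 for miR-381-3p (adjusted p = 0.0203). The 6 miRNAs were chosen on the same CAST/EiJ libraries, so neither the count nor these sizes are independent of that choice. In the same 4-group fit the CAST/EiJ fall of miR-381-3p did not itself pass (edgeR adjusted p = 0.169). The number series was not balanced between the strains, and with it as a covariate 68 of 320 miRNAs passed, against 89 without.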

How the results depend on the processing

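Of 6 miRNAs that passed, 10 did with unlisted values taken as 0 (of 427), 24 with DESeq2, 82 against clean-air numbers over 100 alone and 12 with the number series as a covariate. Leaving out each library in turn gave 0 to 24. Of 159 messenger RNAs, 15 passed against clean-air numbers 1 and 2 alone, 363 with the series as a covariate and 39 with only the numbers that have a small RNA library. The 6 miRNAs kept their sign under each of their 20 or 21 alternatives. Their BD libraries lay outside the range of every control, so settings that only drop libraries could not turn it. miR-143-3p and miR-335-3p passed in 19 of 21, miR-381-3p in 16, miR-335-5p in 15, miR-223-3p in 11 and miR-362-5p in 7 of 20. These alternatives are not independent: the covariate fit takes its BD fold from numbers 1 and 2, as the fit against those alone does. Signs turned for miRNAs that did not pass. Against numbers 1 and 2 alone and with the covariate, log2 folds were 0.25 and 0.27 for miR-34a-5p, -0.21 and -0.19 for miR-150-5p, -0.13 and -0.12 for miR-142-3p, 0.44 and 0.46 for miR-146a-5p, and 0.040 and 0.054 for miR-30a-5p. For miR-451 it was 0.0094 with the covariate, and for miR-146a-5p it ranged from -0.35 to 0.11 as each library was left out, the last without clean-air Lung104. The cause of these shifts was not tested. No paired analysis was possible because the groups share no library number. Precision is limited by 3 BD libraries and, near the listing limit, by depth.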
